A study of Homo sapiens with 8 samples.

Results

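NCI-H1581 and NCI-H1703 are human non-small cell lung cancer cell lines whose growth is reduced by FGFR inhibition, and the comparison described here sets the sensitive NCI-H1703 cells against the sensitive NCI-H1581 cells, before any selection for resistance. It uses 4 of the 8 RNA-seq libraries of the study, 2 replicates of each line, and the 18203 of 37441 listed genes that had at least 10 estimated counts in total over the 8 libraries. NCI-H1581 was kept in DMEM/F12 and NCI-H1703 in RPMI 1640, both with serum and antibiotics, and neither had been cultured in the inhibitor CPL304110. The other 4 libraries come from NCI-H1581R and NCI-H1703R, the variants of these lines selected over months in rising CPL304110 up to 2.5 µM and 5 µM, and they serve below to show whether a line difference was also found, or differed, in libraries that the comparison did not use, and they count towards the minimum of 10 counts. For each replicate, cells were seeded on dishes and collected on the day after their medium was renewed. Each line descends from the tumour of 1 person and was always grown in its own medium, so the line, its genetic background and the medium cannot be told apart in any result below. In results that use the resistant variants, the line and the final dose cannot be told apart either.

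FGF receptors are tyrosine kinases of the cell surface. When an FGF ligand and a heparan sulphate or Klotho co-receptor bring them together, they phosphorylate the adaptor FRS2 and the phospholipase PLCG1, and signal mainly through RAS and ERK, which switch on both growth genes and their own inhibitors of the Sprouty, Spred and DUSP families. Both lines are known for amplification of the FGFR1 region and NCI-H1703 also for amplification of the PDGFRA region. DNA copy number was not analysed here.

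Library totals were 35677346 and 40031710 counts for NCI-H1581 and 37069463 and 33800389 counts for NCI-H1703. A count of 3, taken as the floor below which a gene was not read, was 0.0746 to 0.0893 CPM (counts per 1000000 counts of the TMM-scaled library size) in these 4 libraries, and floors and intervals cover counting error only. The gap between replicates exceeded counting noise in both lines (chi-square per degree of freedom 23.6 and 23.3), so each library was counted as 1 sample, and the median absolute difference between replicates was 0.134 on the log2 scale in NCI-H1581 and 0.107 in NCI-H1703 over 9038 genes. Fold changes below are log2 values of NCI-H1703 over NCI-H1581 with their standard error, a positive value means higher in NCI-H1703, and a gene was called when edgeR's quasi-likelihood test gave a Benjamini-Hochberg adjusted p under 0.1. Whether reads were counted by strand is not given in the sources used here, so genes whose exons overlap those of another gene are uncertain. Among those named below with overlaps of protein-coding genes are FGF2 (NUDT6), FGF5 (CFAP299), MAPK12 (HDAC10), CDK4 (TSPAN31), NKX2-1 (SFTA3), KRT18 (KRT8), INA (NT5C2), NSD3 (DDHD2), FIP1L1 (LNX1), and PDGFRA and SRD5A3, each with an ID that has no gene name.

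The lines differed in most of their expressed genes. Of the 18203 genes tested, 11444 (62.9%) were called, of which NCI-H1703 had the higher level for 5907 (32.5%) and NCI-H1581 for 5537 (30.4%). The difference was over 2-fold for 6856 genes (37.7%), 3589 (19.7%) of them higher in NCI-H1703 and 3267 (17.9%) in NCI-H1581, and over 16-fold for 2418 (13.3%), 1210 (6.65%) and 1208 (6.64%) of them. Where every library had to hold at least 10 counts, which leaves out genes read in 1 line only, 420 exceeded 16-fold. The replicates of the lines did not overlap for 13939 genes (76.6%), so an absence of overlap is by itself the usual state of a gene in this comparison. The median log2 fold change over all genes was 0.04 and the median absolute one 0.94. Genes read at 1 CPM or more in a line while each library of the other line held at most 3 counts numbered 382 in NCI-H1581 and 283 in NCI-H1703. At 10 CPM or more they numbered 127 and 63, and at 50 CPM or more 23 and 13.

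**Figure D1:**
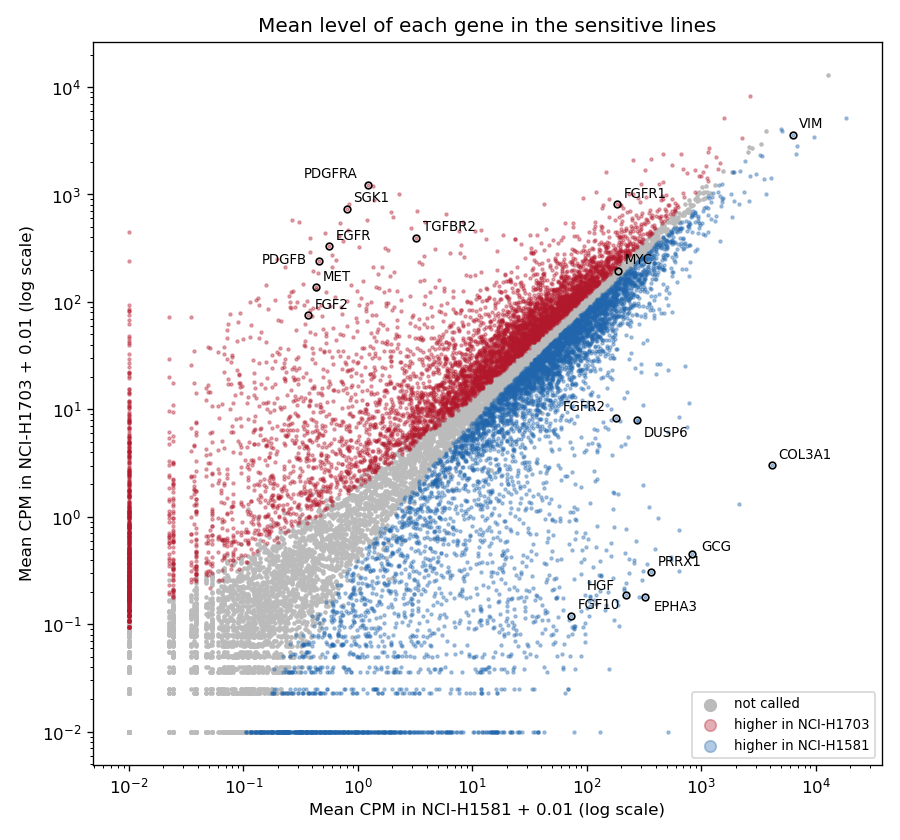
Each point is 1 of the genes tested, with its mean CPM over 2 replicates in NCI-H1581 on the x axis and in NCI-H1703 on the y axis, both plus 0.01 and on log scales. Red points were called higher in NCI-H1703 (5907 genes over the table), blue points higher in NCI-H1581 (5537) and grey points were not called. Genes on the left and lower edges had no counts in one line. PDGFRA, EGFR and MET lie far above the diagonal, COL3A1, EPHA3 and HGF far below it, and MYC on it.

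A part of the all-or-none differences concerned genes whose rows are uncertain. Of the tested IDs, 1026 have no place in GENCODE v44, and among the 351 of these that exceeded 10 CPM in a line, 45 (12.8%) had at most 3 counts in the other. In the MHC interval of chromosome 6, from 28 to 34 Mb, this held for 4 of 60 such genes (6.67%), and among all other genes for 141 of 10015 (1.41%). BAG6, a chaperone gene that most cells express, had 0 and 0 counts in NCI-H1581 and 9282 and 7944 counts in NCI-H1703. DAXX, a histone chaperone, showed the opposite, with 3550 and 4931 counts in NCI-H1581 and 25 and 0 counts in NCI-H1703, and so did the ribosomal protein gene RPS9 of chromosome 19, with 18871 and 21607 counts in NCI-H1581 and 27 and 2 counts in NCI-H1703. A gene that every cell needs was thus listed at or near 0 in 1 line, and the values of these genes and of the HLA genes are given below only as the table lists them. The cause was not tested. The unplaced IDs held 2.08% to 2.38% of the counts per library, and without them and the MHC interval 10790 of 17051 genes were called.

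The FGF receptors split between the lines. All 5 were called, FGFR1 and FGFR3 higher in NCI-H1703 and FGFR2, FGFR4 and FGFRL1 higher in NCI-H1581. Of all genes, 62.9% were called. FGFR1 (chromosome 8, 38400215 to 38468834 in GRCh38, minus strand) had 201 and 170.0 CPM in NCI-H1581 and 814 and 801 CPM in NCI-H1703 (log2 fold change 2.12 ± 0.11, adjusted p = 3.68e-06), a fold of 4.35 with no overlap. FGFR3 (chromosome 4, 1793293 to 1808872) had 2.99 and 3.26 CPM in NCI-H1581 and 65.3 and 55.1 CPM in NCI-H1703 (log2 fold change 4.27 ± 0.17, adjusted p = 1.12e-06). These are the receptors that were higher in NCI-H1703. FGFR2 (chromosome 10, 121478332 to 121598458) had 182 and 179.8 CPM in NCI-H1581 and 13.5 and 3.10 CPM in NCI-H1703 (log2 fold change -4.41 ± 0.42, adjusted p = 8.25e-05), and its NCI-H1703 replicates differed far more from each other than those of any other receptor, at 513 and 104 counts, while both stayed well under NCI-H1581. FGFR4 (chromosome 5, 177086905 to 177098144) had 141 and 107 CPM in NCI-H1581 and 27.9 and 28.3 CPM in NCI-H1703 (log2 fold change -2.14 ± 0.15, adjusted p = 1.84e-05). FGFRL1, a receptor-like protein without the kinase domain, had 33.9 and 29.8 CPM in NCI-H1581 and 22.7 and 21.4 CPM in NCI-H1703 and differed little (log2 fold change -0.53 ± 0.13, adjusted p = 0.0103). In bulk RNA, fewer cells with a transcript and less of it per cell cannot be told apart.

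Scaled to transcript length (counts per kilobase of transcript, scaled to the same total in both lines, mean of 2 replicates), the order of the receptors differed between the lines. In NCI-H1581, FGFR4 (81.5), FGFR2 (79.4) and FGFR1 (66.1) stood close together, above FGFRL1 (18.9) and FGFR3 (1.48). In NCI-H1703, FGFR1 stood alone at 320.5, above FGFR3 (31.7), FGFR4 (20.5), FGFRL1 (14.6) and FGFR2 (4.05). The FGFR4 replicates in NCI-H1581 stood at 141 and 107 CPM. Once scaled to length, this spread is wider than the gaps from FGFR4 to FGFR2 and to FGFR1. The order of FGFR4, FGFR2 and FGFR1 in NCI-H1581 is therefore not resolved.

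The FGF ligands that were called differed by wide margins. Of the 12 ligands tested, 3 were higher in NCI-H1581, 3 in NCI-H1703 and 6 were not called, while FGF1, FGF3, FGF6, FGF9, FGF16 and FGF23 had under 10 counts in all. The share called (50.0%) lay under the 62.9% of all genes. FGF10, the ligand of the IIIb form of FGFR2 in lung branching, had 66.5 and 78.3 CPM in NCI-H1581 and 0.131 and 0.0893 CPM in NCI-H1703 (log2 fold change -9.30 ± 0.28, adjusted p = 1.55e-07). FGF20, a ligand of the FGF9 subfamily, had 1070 and 1111 counts in NCI-H1581 and 3 and 0 counts in NCI-H1703, a ratio of 696 (95% counting interval 238 to 3375) in favour of NCI-H1581 (adjusted p = 2.5e-07). FGF18 had 1.99 and 1.69 CPM in NCI-H1581 and 0.315 and 0.387 CPM in NCI-H1703 (log2 fold change -2.38 ± 0.51, adjusted p = 0.00561). These were the ligands of NCI-H1581, and in NCI-H1703 each stood under 1 CPM. The ligands of NCI-H1703 were FGF2, FGF5 and FGF7. FGF2, the basic FGF that binds FGFR1, had 0.288 and 0.423 CPM in NCI-H1581 and 64.0 and 86.3 CPM in NCI-H1703 (log2 fold change 7.69 ± 0.31, adjusted p = 1.12e-06). FGF5 had 0.0576 and 0.149 CPM in NCI-H1581 and 46.8 and 46.8 CPM in NCI-H1703 (log2 fold change 8.73 ± 0.28, adjusted p = 1.82e-07). FGF7, the keratinocyte growth factor, was scarce in both lines, with 0 and 0 counts in NCI-H1581 and 17 and 15 counts in NCI-H1703, at least 5.58-fold higher in NCI-H1703 (adjusted p = 0.0203). FGF8, with 1.41 and 1.19 CPM in NCI-H1581 and 0.629 and 0.774 CPM in NCI-H1703, was not called in the comparison of 4 libraries but was in a single fit of all 8 (adjusted p = 0.0605). FGF4, FGF17, FGF19 and FGF22 stood under 1 CPM and were not called, although FGF4 and FGF22 were when NCI-H1581 replicate 1 was left out (adjusted p = 0.0953 and 0.073) and FGF19 when NCI-H1581 replicate 2 was (adjusted p = 0.0841).

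**Figure D2:**
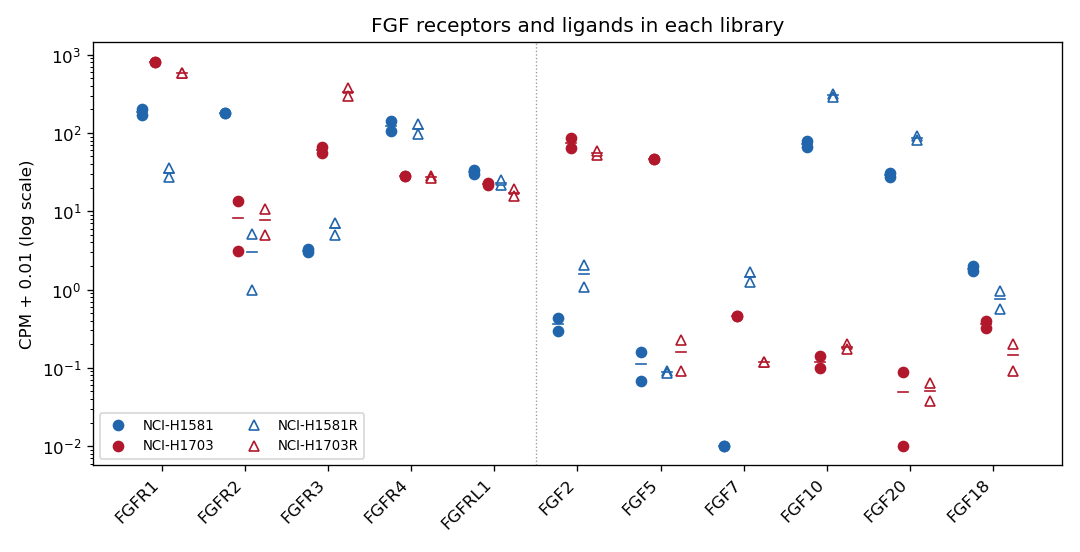
Points give the CPM plus 0.01 of each of the 8 libraries on a log scale for the FGF receptors (left of the dotted line) and 6 ligands (right), circles for the sensitive lines, triangles for their resistant variants and short lines for the mean of 2 replicates. In the circles, FGFR1, FGFR3, FGF2, FGF5 and FGF7 stand higher in NCI-H1703 and FGFR2, FGFR4, FGF10, FGF20 and FGF18 in NCI-H1581, with no overlap.

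Among 17 adaptors and co-receptors, 8 were higher in NCI-H1703, 3 in NCI-H1581 and 6 were not called. The share called (64.7%) lay near the 62.9% of all genes. The core adaptors FRS2 (29.4 and 29.0 CPM in NCI-H1581 and 24.4 and 29.5 CPM in NCI-H1703) and GRB2 (266 and 244 CPM in NCI-H1581 and 217 and 255 CPM in NCI-H1703) were not called. SHC1, an adaptor shared by many receptor kinases, had 359 and 296 CPM in NCI-H1581 and 958 and 929.7 CPM in NCI-H1703 (log2 fold change 1.53 ± 0.12, adjusted p = 2.56e-05). PLCG1, the phospholipase that binds activated FGF receptors, had 245 and 260.0 CPM in NCI-H1581 and 100.1 and 85.6 CPM in NCI-H1703 (log2 fold change -1.44 ± 0.11, adjusted p = 2.61e-05). N-cadherin, CDH2, which binds FGFR1, had 3.43 and 2.16 CPM in NCI-H1581 and 48.7 and 48.4 CPM in NCI-H1703 (log2 fold change 4.14 ± 0.19, adjusted p = 2.12e-06), and the membrane proteins FLRT2 and FLRT3, which bind FGF receptors too, went opposite ways, FLRT2 with 1.70 and 2.21 CPM in NCI-H1581 and 41.9 and 40.0 CPM in NCI-H1703 and FLRT3 with 7.20 and 8.33 CPM in NCI-H1581 and 0.577 and 0.893 CPM in NCI-H1703. Of the intracellular FGF homologous factors, which act on sodium channels and not on FGF receptors, FGF11 was read in NCI-H1581 (167 and 162 CPM in NCI-H1581 and 0.577 and 0.268 CPM in NCI-H1703, log2 fold change -8.56 ± 0.20, adjusted p = 1.1e-07) and FGF12 in NCI-H1703, with 0 and 1 counts in NCI-H1581 and 378 and 317 counts in NCI-H1703 (a ratio of 726 (95% counting interval 130.0 to 28740.0)).

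The inhibitors and transcription factors that ERK switches on did not move together. The shares called were 83.3% (inhibitors) and 86.7% (factors), against 62.9% of all genes. Of 12 feedback inhibitors, 6 were higher in NCI-H1581, 4 in NCI-H1703 and 2 were not called (median log2 fold change -0.15). DUSP6, the phosphatase that removes phosphate from ERK, had 274 and 274 CPM in NCI-H1581 and 6.56 and 9.29 CPM in NCI-H1703 (log2 fold change -5.12 ± 0.16, adjusted p = 3.03e-07). SPRY2 had 99.3 and 105 CPM in NCI-H1581 and 5.19 and 4.32 CPM in NCI-H1703 (log2 fold change -4.42 ± 0.14, adjusted p = 3.6e-07), and SPRED1 and SPRED2 were also higher in NCI-H1581, by -1.20 and -1.79. SPRY4 went the other way, with 41.7 and 39.4 CPM in NCI-H1581 and 94.2 and 87.0 CPM in NCI-H1703 (log2 fold change 1.16 ± 0.11, adjusted p = 6.46e-05), as did DUSP5, a nuclear ERK phosphatase, with 3.77 and 4.43 CPM in NCI-H1581 and 31.1 and 30.0 CPM in NCI-H1703, DUSP4 and IL17RD. Of 15 target factors, 8 were higher in NCI-H1581 and 5 in NCI-H1703. The PEA3 factors ETV4 (282 and 246 CPM in NCI-H1581 and 23.3 and 25.1 CPM in NCI-H1703, log2 fold change -3.45 ± 0.12, adjusted p = 5.4e-07), ETV5 (-1.37) and ETV1 (-3.62) and the zinc finger factor EGR1 (-2.48) stood higher in NCI-H1581. The AP-1 subunits JUN (4.23 and 2.59 CPM in NCI-H1581 and 57.6 and 57.2 CPM in NCI-H1703, log2 fold change 4.09 ± 0.19, adjusted p = 2.3e-06), JUNB (1.78) and FOSL1 (2.62) and PHLDA1 (4.85) stood higher in NCI-H1703. MYC had 179.6 and 193 CPM in NCI-H1581 and 191 and 198 CPM in NCI-H1703 and was not called (log2 fold change 0.06 ± 0.09, adjusted p = 0.596).

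Genes of the PDGF system stood mostly higher in NCI-H1703. Of 15 tested members of the PDGF, KIT, KDR and VEGF receptor families and their ligands, 12 were higher in NCI-H1703 and 3 in NCI-H1581, with a median log2 fold change of 3.74 (2.84 with genes not read in a line at their bound). The share called was 100%, against 62.9% of all genes. PDGFRA (chromosome 4, 54229280 to 54298245), a receptor kinase of mesenchymal cells, had 0.864 and 1.57 CPM in NCI-H1581 and 1175 and 1296 CPM in NCI-H1703 (log2 fold change 9.96 ± 0.20, adjusted p = 6.73e-08), a fold of 995. Its ligands PDGFB, with 0.317 and 0.572 CPM in NCI-H1581 and 246 and 236 CPM in NCI-H1703 (log2 fold change 9.04 ± 0.19, adjusted p = 8.01e-08), and PDGFC, with 72.2 and 79.0 CPM in NCI-H1581 and 519 and 561 CPM in NCI-H1703 (log2 fold change 2.84 ± 0.10, adjusted p = 6.88e-07), were higher in the same line. FLT4, the receptor of VEGF-C, had 4.09 and 3.06 CPM in NCI-H1581 and 48.7 and 46.4 CPM in NCI-H1703. The related receptor PDGFRB was higher in NCI-H1581, with 6.76 and 3.93 CPM in NCI-H1581 and 0.577 and 0.328 CPM in NCI-H1703 (log2 fold change -3.51 ± 0.52, adjusted p = 0.000919), as was the ligand PDGFD, with 11.7 and 11.7 CPM in NCI-H1581 and 0.184 and 0.0893 CPM in NCI-H1703 (log2 fold change -6.35 ± 0.39, adjusted p = 6.4e-06). KIT and KDR, which follow PDGFRA on chromosome 4 on its side of higher coordinates, had under 10 counts over all libraries, at most 5 in any of the 4 sensitive ones.

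Members of other receptor kinase families differed as widely, although the share of members called in the ERBB list (53.8%) lay under the 62.9% of all genes and that of the other receptor kinases (68.0%) near it. EGFR had 0.259 and 0.845 CPM in NCI-H1581 and 324 and 334 CPM in NCI-H1703 (log2 fold change 9.16 ± 0.23, adjusted p = 1.2e-07), and its ligand HBEGF had 1.96 and 2.16 CPM in NCI-H1581 and 83.5 and 97.6 CPM in NCI-H1703 (log2 fold change 5.45 ± 0.18, adjusted p = 3.67e-07). Of the 13 genes of the ERBB family and its ligands, 6 were higher in NCI-H1703, 1 in NCI-H1581 and 6 were not called. The exception was ERBB3, the receptor without an active kinase, with 16.9 and 17.5 CPM in NCI-H1581 and 2.88 and 2.38 CPM in NCI-H1703 (log2 fold change -2.70 ± 0.20, adjusted p = 2.38e-05). ROR1, a Wnt-binding receptor, had 0 and 0.0994 CPM in NCI-H1581 and 31.5 and 36.7 CPM in NCI-H1703 (log2 fold change 9.23 ± 0.41, adjusted p = 3.04e-07). AXL, the GAS6 receptor, was a receptor of NCI-H1581, with 20.5 and 17.8 CPM in NCI-H1581 and 0.708 and 1.10 CPM in NCI-H1703 (log2 fold change -4.41 ± 0.27, adjusted p = 8.11e-06). Of the 25 other receptor kinases and ligands tested, 6 were higher in NCI-H1703 and 11 in NCI-H1581. Among 21 Eph receptors and ephrins, which guide cells by contact, 9 were higher in each line (85.7% called). EPHA3 had 313 and 331 CPM in NCI-H1581 and 0.157 and 0.179 CPM in NCI-H1703 (log2 fold change -10.88 ± 0.20, adjusted p = 6.73e-08), and EPHA7 had 365 and 419.8 CPM in NCI-H1581 and 0.367 and 0.625 CPM in NCI-H1703 (log2 fold change -9.64 ± 0.21, adjusted p = 8.72e-08). EPHA2, the epithelial Eph receptor, was expressed in both, with 115 and 101 CPM in NCI-H1581 and 259.6 and 253 CPM in NCI-H1703 (log2 fold change 1.25 ± 0.10, adjusted p = 3.86e-05).

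A receptor and its only ligand were divided between the lines. MET, the receptor of hepatocyte growth factor, had 0.345 and 0.497 CPM in NCI-H1581 and 127 and 146 CPM in NCI-H1703 (log2 fold change 8.31 ± 0.21, adjusted p = 1.56e-07), and HGF, its ligand, had 207 and 236 CPM in NCI-H1581 and 0.262 and 0.0893 CPM in NCI-H1703 (log2 fold change -10.23 ± 0.24, adjusted p = 9.66e-08). The promoters of this pair are shown because their genes had opposite levels and differ in CG content. They are the 250 bases before the start of each gene, read 5′ to 3′ on the strand of the gene from RefSeq for GRCh38.p14, with every CG in capitals. RefSeq and GENCODE v44 place the start of MET at the same base, but GENCODE places that of HGF at 81770438, further upstream, so that the HGF stretch printed lies inside the gene as GENCODE has it. The MET sequence (chr7:116671946-116672195, plus strand) holds 24 CG and the HGF sequence (chr7:81770048-81770297, minus strand) holds 6.
MET: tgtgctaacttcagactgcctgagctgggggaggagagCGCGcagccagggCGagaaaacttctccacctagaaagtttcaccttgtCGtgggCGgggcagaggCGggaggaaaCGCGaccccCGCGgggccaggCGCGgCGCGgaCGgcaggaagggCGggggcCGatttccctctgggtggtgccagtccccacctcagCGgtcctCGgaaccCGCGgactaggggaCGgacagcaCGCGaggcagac
HGF: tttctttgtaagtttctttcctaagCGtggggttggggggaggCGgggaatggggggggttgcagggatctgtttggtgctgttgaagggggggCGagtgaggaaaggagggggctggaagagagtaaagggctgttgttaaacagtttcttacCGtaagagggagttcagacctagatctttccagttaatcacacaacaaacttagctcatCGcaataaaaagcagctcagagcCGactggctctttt
Over the 8747 of 15546 tested protein-coding genes with exactly 1 such entry, the median was 21 CG (quartiles 13 and 28). Genes read at 1 CPM or more in a line and with at most 3 counts in the other had a median of 15 in both directions, over 90 of 199 genes for NCI-H1703 and 163 of 298 for NCI-H1581. The letters TATAAA on either strand stood in 6.05% of all these promoters, in 22.2% of those of the NCI-H1703 genes and in 11% of those of the NCI-H1581 genes. Such a match is a description of these letters and not a site.

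Genes of the p38 pathway, a stress kinase cascade that the study followed in the resistant variants, stood mostly higher in NCI-H1703. Of 20 tested, 16 were higher in NCI-H1703, 3 in NCI-H1581 and 1 was not called, with a median log2 fold change of 1.16 against 0.04 over all genes. The kinase MAPK11 had 26.1 and 26.1 CPM in NCI-H1581 and 157 and 141 CPM in NCI-H1703 (log2 fold change 2.51 ± 0.11, adjusted p = 1.61e-06). MAPK12 had 63.8 and 60.5 CPM in NCI-H1581 and 183 and 126 CPM in NCI-H1703 (log2 fold change 1.31 ± 0.17, adjusted p = 0.000465), and its exons overlap those of neighbouring genes in the table. MAPK14, the most widely studied p38 kinase, was the member not called, with 87.2 and 83.8 CPM in NCI-H1581 and 90.6 and 101 CPM in NCI-H1703 (log2 fold change 0.16 ± 0.10, adjusted p = 0.213). Their activators went opposite ways. MAP2K3 had 29.4 and 26.1 CPM in NCI-H1581 and 142 and 148 CPM in NCI-H1703 (log2 fold change 2.38 ± 0.11, adjusted p = 2.04e-06), whereas MAP2K6 had 18.9 and 19.9 CPM in NCI-H1581 and 0.341 and 0.447 CPM in NCI-H1703 (log2 fold change -5.62 ± 0.28, adjusted p = 3.16e-06). Downstream, the small heat shock protein gene HSPB1 had 471 and 392 CPM in NCI-H1581 and 1285 and 1229 CPM in NCI-H1703 (log2 fold change 1.54 ± 0.11, adjusted p = 2.3e-05) and the kinase gene MAPKAPK3 238 and 223 CPM in NCI-H1581 and 72.5 and 84.1 CPM in NCI-H1703 (log2 fold change -1.56 ± 0.11, adjusted p = 1.7e-05). DUSP10, a phosphatase of p38 and JNK, had 0 and 0 counts in NCI-H1581 and 149 and 145 counts in NCI-H1703, at least 51.2-fold higher in NCI-H1703 (adjusted p = 0.000269).

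**Figure D3:**
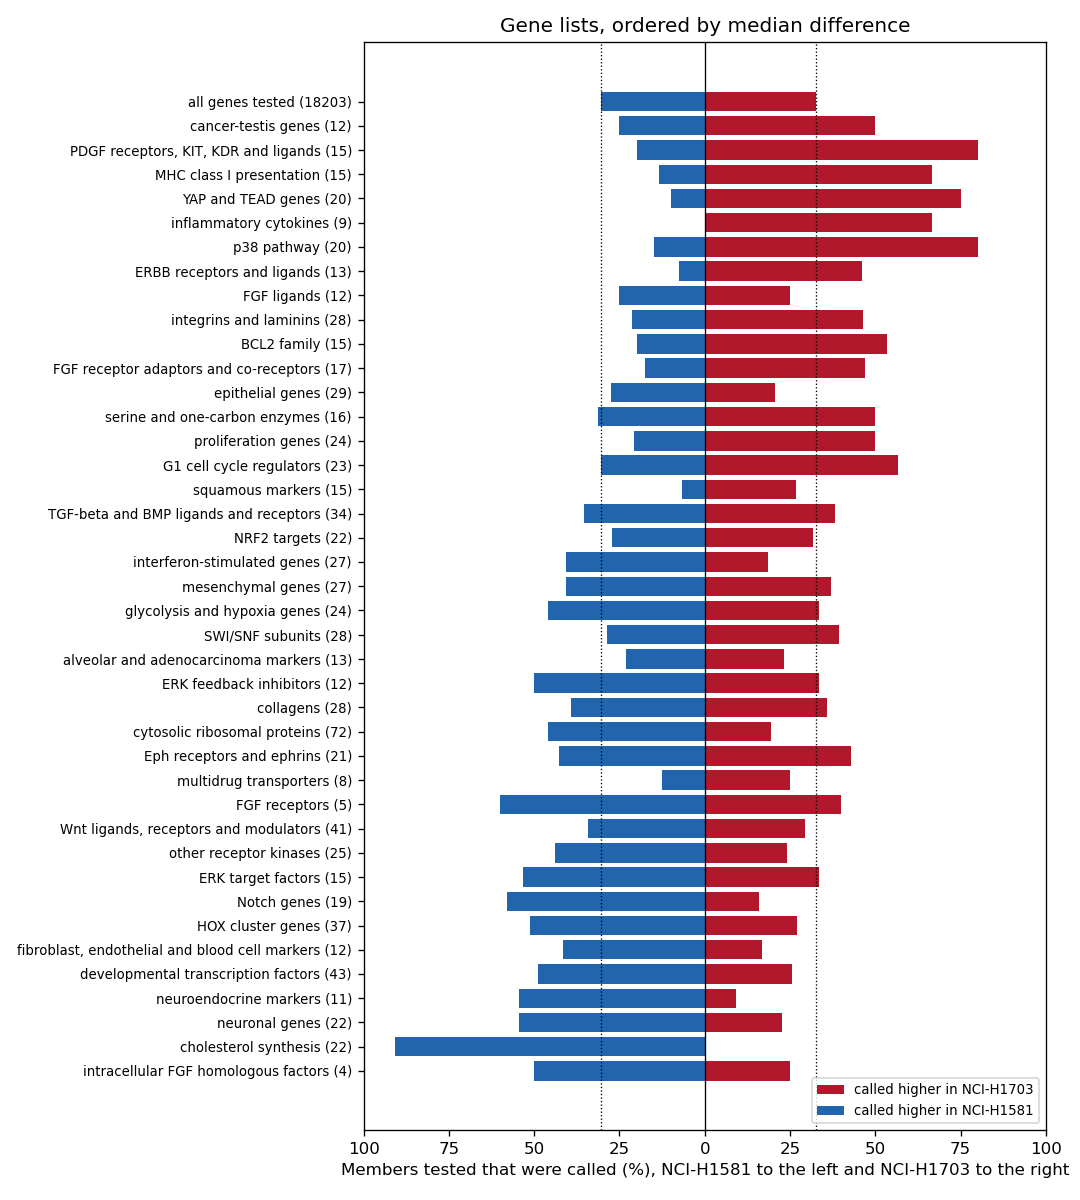
Bars give, for each gene list and its number of tested members, the percent called higher in NCI-H1581 (blue, to the left) and in NCI-H1703 (red, to the right), ordered by the median log2 fold change. Dotted lines mark the shares over all genes tested, 30.4% and 32.5%. The cholesterol synthesis list lies wholly to the left, and the PDGF, p38 and YAP lists lie mostly to the right.

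Alveolar and squamous markers had low summed levels in both lines. The shares called were 46.2% (alveolar and adenocarcinoma), 33.3% (squamous) and 63.6% (neuroendocrine), against 62.9% of all genes. The neuroendocrine list summed to 814 and 790.5 CPM in NCI-H1581 and 653 and 692 CPM in NCI-H1703. UCHL1, a ubiquitin hydrolase of neurons, had 451 and 437 CPM in NCI-H1581 and 607 and 646 CPM in NCI-H1703. It made up nearly all of the list in NCI-H1703, whereas other members held a large part in NCI-H1581. Of 13 alveolar and adenocarcinoma markers, 3 were higher in each line and 7 were not called. With DESeq2 or at an adjusted p under 0.05, 3 were called in place of 6. The number called also fell without NCI-H1581 replicate 1 or either NCI-H1703 replicate. NKX2-1, the lung lineage factor, had 13.2 and 14.9 CPM in NCI-H1581 and 0.341 and 0.715 CPM in NCI-H1703 (log2 fold change -4.76 ± 0.33, adjusted p = 1.56e-05), while ABCA3, a lipid transporter of alveolar type II cells, was read in both lines, with 97.5 and 99.9 CPM in NCI-H1581 and 43.6 and 37.8 CPM in NCI-H1703. Of 15 squamous markers, 4 were higher in NCI-H1703 and 1 in NCI-H1581. SOX2, a squamous and stem cell factor, had 1.67 and 0.497 CPM in NCI-H1581 and 36.9 and 37.0 CPM in NCI-H1703 (log2 fold change 5.14 ± 0.30, adjusted p = 6.38e-06), and TP63, the defining squamous factor, had 6.07 and 5.77 CPM in NCI-H1581 and 0.105 and 0.208 CPM in NCI-H1703 (log2 fold change -5.24 ± 0.47, adjusted p = 5.05e-05). KRT5, the basal keratin, had 1 and 47 counts in NCI-H1581 and 1 and 35 counts in NCI-H1703 (log2 fold change -0.34 ± 1.25, adjusted p = 0.839), and in the resistant variants 0 and 41 counts and 0 and 38 counts, so that its few reads lay in the replicate numbered 2 of every variant. The part of this in other results was not tested. Of 11 neuroendocrine markers, 6 were higher in NCI-H1581, 1 in NCI-H1703 and 4 were not called. ISL1 had 119 and 129 CPM in NCI-H1581 and 2.12 and 2.35 CPM in NCI-H1703 (log2 fold change -5.79 ± 0.15, adjusted p = 1.72e-07), and the adhesion molecule NCAM1 had 79.1 and 77.8 CPM in NCI-H1581 and 0.0525 and 0.119 CPM in NCI-H1703 (log2 fold change -9.82 ± 0.25, adjusted p = 6.73e-08). SYP, the synaptic vesicle protein, was read in both, with 71.1 and 63.8 CPM in NCI-H1581 and 10.9 and 7.98 CPM in NCI-H1703.

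Epithelial and mesenchymal genes were mixed in both lines. The shares called were 48.3% (epithelial) and 77.8% (mesenchymal), against 62.9% of all genes. Of 29 epithelial genes, 6 were higher in NCI-H1703, 8 in NCI-H1581 and 15 were not called, and E-cadherin, CDH1, had 0.518 and 1.14 CPM in NCI-H1581 and 0.892 and 1.31 CPM in NCI-H1703 (log2 fold change 0.35 ± 0.54, adjusted p = 0.611). The tight junction gene CLDN1 had 0.201 and 0.323 CPM in NCI-H1581 and 117 and 137 CPM in NCI-H1703 (log2 fold change 8.88 ± 0.24, adjusted p = 1.82e-07), and CLDN3 went the opposite way, with 46.9 and 39.4 CPM in NCI-H1581 and 0.236 and 0 CPM in NCI-H1703 (log2 fold change -8.38 ± 0.39, adjusted p = 1.36e-06). The keratin KRT18 was higher in NCI-H1703, with 2.01 and 1.07 CPM in NCI-H1581 and 62.4 and 65.2 CPM in NCI-H1703, and EPCAM and DSP, a desmosome gene, in NCI-H1581, with 15.5 and 13.0 CPM in NCI-H1581 and 0.682 and 0.208 CPM in NCI-H1703 and 216 and 234 CPM in NCI-H1581 and 60.0 and 67.8 CPM in NCI-H1703. The splicing factor ESRP1, a switch for the epithelial forms of the FGF receptors, had 0.777 and 1.47 CPM in NCI-H1581 and 0.0262 and 0.298 CPM in NCI-H1703 (log2 fold change -2.87 ± 0.85, adjusted p = 0.0224), so both lines stood low, and it was not called without NCI-H1703 replicate 1 (adjusted p = 0.144). Of 27 mesenchymal genes, 10 were higher in NCI-H1703 and 11 in NCI-H1581. Vimentin, VIM, was abundant in both, with 6509 and 6072 CPM in NCI-H1581 and 3606 and 3618 CPM in NCI-H1703 (log2 fold change -0.80 ± 0.10, adjusted p = 0.000338). The lines differed in which repressor of epithelial genes they carried. ZEB1 had 1.61 and 2.29 CPM in NCI-H1581 and 29.7 and 33.4 CPM in NCI-H1703 (log2 fold change 4.00 ± 0.21, adjusted p = 3.58e-06), and ZEB2 had 92.0 and 90.8 CPM in NCI-H1581 and 0.367 and 0.596 CPM in NCI-H1703 (log2 fold change -7.58 ± 0.20, adjusted p = 1.76e-07).

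Some fibrillar collagen and other matrix genes differed widely, without a common direction over the collagens. COL3A1, the type III collagen chain, had 4060.0 and 4226 CPM in NCI-H1581 and 2.39 and 3.60 CPM in NCI-H1703 (log2 fold change -10.45 ± 0.19, adjusted p = 6.73e-08). COL1A2, a chain of type I collagen, had 2255 and 2037 CPM in NCI-H1581 and 1.29 and 1.34 CPM in NCI-H1703 (log2 fold change -10.67 ± 0.17, adjusted p = 6.73e-08), and COL1A1, the other chain of that collagen, 59.4 and 56.8 CPM in NCI-H1581 and 1.02 and 0.893 CPM in NCI-H1703 (log2 fold change -5.91 ± 0.19, adjusted p = 3.34e-07). The mesenchymal factor PRRX1 had 338 and 391 CPM in NCI-H1581 and 0.262 and 0.328 CPM in NCI-H1703 (log2 fold change -10.26 ± 0.21, adjusted p = 7.61e-08). The proteoglycan LUM and the protease MMP2 were higher in NCI-H1581 too, by -9.61 and -8.21. Other matrix genes were higher in NCI-H1703. COL4A2, a basement membrane collagen, had 0 and 0.124 CPM in NCI-H1581 and 27.5 and 31.8 CPM in NCI-H1703 (log2 fold change 8.72 ± 0.42, adjusted p = 6.68e-07), and COL12A1 had 1.12 and 2.21 CPM in NCI-H1581 and 59.2 and 62.7 CPM in NCI-H1703. Over the whole lists the counts were even, with 10 collagens of 28 higher in NCI-H1703 and 11 in NCI-H1581. Integrins and laminins leaned to NCI-H1703, with 13 of 28 higher there and 6 in NCI-H1581 (67.9% called, against 62.9% of all genes). ITGA3, a laminin receptor, had 5.18 and 6.54 CPM in NCI-H1581 and 672 and 639 CPM in NCI-H1703 (log2 fold change 6.80 ± 0.14, adjusted p = 7.61e-08), and LAMA1, a laminin chain of early embryos, 44.8 and 47.3 CPM in NCI-H1581 and 0.944 and 0.506 CPM in NCI-H1703 (log2 fold change -5.96 ± 0.23, adjusted p = 8.35e-07).

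Of 12 markers of fibroblasts, endothelium and blood cells, 2 were higher in NCI-H1703, 5 in NCI-H1581 and 5 were not called (4 called in place of 7 without NCI-H1703 replicate 1), and the summed level of the list was 107 and 86.7 CPM in NCI-H1581 and 27.9 and 23.1 CPM in NCI-H1703, most of it from the lysosomal gene CD68 (93.9 and 76.9 CPM in NCI-H1581 and 21.7 and 20.1 CPM in NCI-H1703). The share called was 58.3%, against 62.9% of all genes. PTPRC, the leukocyte marker, had 2 counts in all 4 libraries, and PECAM1, CD14 and VWF had at most 18 counts in any of them.

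More developmental regulators were higher in NCI-H1581 than in NCI-H1703. Of 43 developmental transcription factors, 21 were higher in NCI-H1581, 11 in NCI-H1703 and 11 were not called (median log2 fold change -1.17). The share called was 74.4%, against 62.9% of all genes, of which 30.4% were higher in NCI-H1581 and 32.5% in NCI-H1703. ZIC1, a neural tube factor, had 314 and 311 CPM in NCI-H1581 and 1.91 and 2.05 CPM in NCI-H1703 (log2 fold change -7.30 ± 0.14, adjusted p = 6.73e-08), and OTX2, a factor of the forebrain and eye, had 103 and 109 CPM in NCI-H1581 and 0.105 and 0.238 CPM in NCI-H1703 (log2 fold change -9.28 ± 0.23, adjusted p = 1.09e-07). HAND2, a factor of heart and sympathetic neurons, had 166 and 167 CPM in NCI-H1581 and 3.07 and 4.41 CPM in NCI-H1703 (log2 fold change -5.49 ± 0.16, adjusted p = 2.44e-07). In NCI-H1703, SIX3, another forebrain factor, had 0.173 and 0.224 CPM in NCI-H1581 and 34.8 and 39.5 CPM in NCI-H1703 (log2 fold change 7.51 ± 0.28, adjusted p = 7.04e-07), and GATA2, a blood and endothelial factor, 10.7 and 12.3 CPM in NCI-H1581 and 103 and 117 CPM in NCI-H1703 (log2 fold change 3.26 ± 0.13, adjusted p = 1.16e-06). Each line thus carried factors of tissues other than lung. Of 37 HOX genes, 19 were higher in NCI-H1581 and 10 in NCI-H1703 (78.4% called, median -0.91, -0.96 at bounds). HOXB2 and HOXB4 of the HOXB cluster were higher in NCI-H1581, by -7.81 and -3.75, while HOXC8, HOXC9 and HOXA3 were higher in NCI-H1703, by 1.77, 2.36 and 4.08. Neuronal genes were split as well, with 12 of 22 higher in NCI-H1581, among them the synaptic gene SNAP25 (17.3 and 14.9 CPM in NCI-H1581 and 0.341 and 0.0596 CPM in NCI-H1703), and 5 in NCI-H1703, among them the neurofilament gene INA (45.7 and 42.4 CPM in NCI-H1581 and 446 and 506 CPM in NCI-H1703). Their median was -1.99, or -1.33 at bounds, and 77.3% were called.

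Ligands, receptors and targets of the TGF-beta, BMP, Wnt, Notch and YAP pathways followed different patterns. Of 34 TGF-beta and BMP genes, 13 were higher in NCI-H1703 and 12 in NCI-H1581 (73.5% called). The type II receptor TGFBR2 had 3.40 and 3.03 CPM in NCI-H1581 and 365 and 423 CPM in NCI-H1703 (log2 fold change 6.94 ± 0.16, adjusted p = 9.56e-08). The BMP target genes ID1 (6.65 and 6.12 CPM in NCI-H1581 and 265 and 302 CPM in NCI-H1703, log2 fold change 5.47 ± 0.14, adjusted p = 1.34e-07) and ID3 (8.61 and 7.83 CPM in NCI-H1581 and 535 and 571 CPM in NCI-H1703, log2 fold change 6.08 ± 0.12, adjusted p = 7.08e-08), inhibitors of basic helix-loop-helix factors, were higher in the same line, while the ligand BMP4 was higher in NCI-H1581, with 140.2 and 156 CPM in NCI-H1581 and 0.761 and 0.208 CPM in NCI-H1703 (log2 fold change -8.20 ± 0.25, adjusted p = 3.02e-07). TGFB2 was a ligand of NCI-H1581 as well (-6.17). Of 41 Wnt genes, 12 were higher in NCI-H1703, 14 in NCI-H1581 and 15 were not called (63.4% called, against 62.9% of all genes). WNT5B had 0.374 and 0.199 CPM in NCI-H1581 and 99.3 and 100.4 CPM in NCI-H1703 (log2 fold change 8.46 ± 0.21, adjusted p = 1.39e-07), and WNT16 had 2600 and 2933 counts in NCI-H1581 and 2 and 3 counts in NCI-H1703, a ratio of 1059 (95% counting interval 453 to 3261) in favour of NCI-H1581. AXIN2, a target gene of beta-catenin, had 228 and 224 CPM in NCI-H1581 and 14.4 and 14.6 CPM in NCI-H1703 (log2 fold change -3.96 ± 0.11, adjusted p = 1.81e-07). Notch genes leaned to NCI-H1581, with 11 of 19 higher there and 3 in NCI-H1703 (73.7% called, median -0.77, -0.85 at bounds). The receptor gene NOTCH2 was higher in NCI-H1703, with 229 and 214 CPM in NCI-H1581 and 424 and 501 CPM in NCI-H1703, and HEYL, a Notch target gene, had 847 and 866 counts in NCI-H1581 and 0 and 1 counts in NCI-H1703.

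YAP and TEAD genes leaned to NCI-H1703, with 15 of 20 higher there, 2 in NCI-H1581 and a median log2 fold change of 2.03. The share called was 85.0%, against 62.9% of all genes. The co-activator WWTR1 (TAZ) had 13.7 and 12.6 CPM in NCI-H1581 and 372 and 397 CPM in NCI-H1703 (log2 fold change 4.87 ± 0.12, adjusted p = 1.09e-07), and its partner TEAD4 had 55.1 and 50.1 CPM in NCI-H1581 and 245 and 272 CPM in NCI-H1703 (log2 fold change 2.30 ± 0.11, adjusted p = 2.3e-06). Target genes stood higher in the same line, CCN1 with 1.64 and 1.62 CPM in NCI-H1581 and 196 and 229 CPM in NCI-H1703 (log2 fold change 7.03 ± 0.17, adjusted p = 1.2e-07), CCN2 with 3.31 and 3.48 CPM in NCI-H1581 and 203 and 266 CPM in NCI-H1703 (log2 fold change 6.10 ± 0.20, adjusted p = 3.81e-07) and CRIM1 with 1.99 and 2.09 CPM in NCI-H1581 and 573 and 652 CPM in NCI-H1703 (log2 fold change 8.23 ± 0.16, adjusted p = 6.73e-08). AXL, also listed as a target, was higher in NCI-H1581, as given above.

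Cell cycle genes differed by less. The shares called were 70.8% (proliferation), 87.0% (G1 regulators), 73.3% (BCL2 family) and 37.5% (multidrug transporters), against 62.9% of all genes. Of 24 proliferation genes, 12 were higher in NCI-H1703, 5 in NCI-H1581 and 7 were not called, with a median of 0.26. MKI67, the marker of cycling cells, had 128 and 141 CPM in NCI-H1581 and 249 and 228 CPM in NCI-H1703 (log2 fold change 0.83 ± 0.10, adjusted p = 0.000313). PCNA and the helicase gene MCM7 were higher in NCI-H1581, with 409 and 406 CPM in NCI-H1581 and 164 and 189 CPM in NCI-H1703 and 987 and 881 CPM in NCI-H1581 and 422 and 454 CPM in NCI-H1703. Of 23 regulators of G1, 13 were higher in NCI-H1703 and 7 in NCI-H1581. CDK4 had 941 and 807 CPM in NCI-H1581 and 292 and 306 CPM in NCI-H1703 (log2 fold change -1.55 ± 0.11, adjusted p = 1.67e-05), and its target RB1 57.5 and 64.6 CPM in NCI-H1581 and 80.1 and 92.4 CPM in NCI-H1703 (log2 fold change 0.50 ± 0.12, adjusted p = 0.00913). CDKN2A, the locus of the p16 inhibitor, was read in both lines, with 143 and 147 CPM in NCI-H1581 and 164 and 173 CPM in NCI-H1703 (log2 fold change 0.22 ± 0.09, adjusted p = 0.0797), a small difference that was no longer called with RLE normalisation (adjusted p = 0.127) or without any of the 4 libraries (adjusted p = 0.116 to 0.265). In the BCL2 family of apoptosis regulators, 8 of 15 genes were higher in NCI-H1703 and 3 in NCI-H1581, and BCL2 itself had 0.201 and 0.373 CPM in NCI-H1581 and 5.72 and 7.09 CPM in NCI-H1703 (log2 fold change 4.43 ± 0.43, adjusted p = 0.000101). In place of 11 members, 6 were called without NCI-H1703 replicate 1 and 7 in a single fit of all 8 libraries. Of 8 multidrug transporters, 2 were higher in NCI-H1703 and 1 in NCI-H1581, and 1 was called without NCI-H1703 replicate 2 or in the single fit.

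Genes of the SWI/SNF chromatin remodellers went both ways, with 11 of 28 higher in NCI-H1703, 8 in NCI-H1581 and 9 not called. The share called (67.9%) lay near the 62.9% of all genes. Both ATPase genes are listed with low values in both lines. SMARCB1 of the same complex, given at the end, is listed with few counts too, and whether these values are true low levels was not tested. SMARCA4 had 5.44 and 5.57 CPM in NCI-H1581 and 7.47 and 4.5 CPM in NCI-H1703 and was not called (log2 fold change 0.14 ± 0.28, adjusted p = 0.708), and SMARCA2 had 3 and 3 counts in NCI-H1581 and 14 and 15 counts in NCI-H1703, a ratio of 5.05 (95% counting interval 2.06 to 14.9) in favour of NCI-H1703 (adjusted p = 0.0437), which was not called by DESeq2 (adjusted p = 0.182) or without either NCI-H1703 replicate (adjusted p = 0.121 and 0.159) or NCI-H1581 replicate 2 (adjusted p = 0.131). DPF1, a neuronal subunit, had 34.3 and 35.5 CPM in NCI-H1581 and 4.46 and 4.38 CPM in NCI-H1703 (log2 fold change -2.98 ± 0.15, adjusted p = 3.35e-06), and BRD9 64.6 and 67.6 CPM in NCI-H1581 and 169 and 162 CPM in NCI-H1703 (log2 fold change 1.32 ± 0.10, adjusted p = 1.91e-05). Of 12 cancer-testis genes, 6 were higher in NCI-H1703 and 3 in NCI-H1581. MAGEA4 was abundant in both, with 1051 and 1016 CPM in NCI-H1581 and 404 and 447 CPM in NCI-H1703 (log2 fold change -1.28 ± 0.10, adjusted p = 2.52e-05), while MAGEA1 had 0.173 and 0.273 CPM in NCI-H1581 and 195 and 227 CPM in NCI-H1703 (log2 fold change 9.84 ± 0.23, adjusted p = 1.04e-07). Members of this family with near-identical copies, such as CTAG1A, MAGEA3 and MAGEA6, are uncertain, since reads can be split between copies.

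Of the 40 lists, cholesterol synthesis had the largest share of members called in 1 direction. Of 22 genes, 20 (90.9%) were higher in NCI-H1581, 0 in NCI-H1703 and 2 were not called, with a median log2 fold change of -1.52. Of all genes, 30.4% were higher in NCI-H1581. HMGCS1, at the entry of the pathway, had 434 and 556 CPM in NCI-H1581 and 128 and 131 CPM in NCI-H1703 (log2 fold change -1.94 ± 0.13, adjusted p = 1.55e-05). INSIG1, the sterol sensor that holds SREBP in the endoplasmic reticulum, differed most, with 231 and 240.3 CPM in NCI-H1581 and 30.1 and 28.7 CPM in NCI-H1703 (log2 fold change -3.0 ± 0.10, adjusted p = 4.68e-07). NSDHL was not called, with 97.2 and 95.8 CPM in NCI-H1581 and 85.6 and 88.1 CPM in NCI-H1703. SREBF2, the factor that controls the pathway, differed little (log2 fold change -0.28 ± 0.10, adjusted p = 0.0375). All 20 were also called higher in NCI-H1581R than in NCI-H1703R, so the pattern stood in both pairs of variants. Each pair was grown in different media.

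Other metabolic lists were mixed. The shares called were 59.1% (NRF2 targets), 79.2% (glycolysis and hypoxia), 81.2% (serine and one-carbon) and 65.3% (ribosomal proteins), against 62.9% of all genes. Of 22 NRF2 target genes, 7 were higher in NCI-H1703 and 6 in NCI-H1581, but the most abundant stood in NCI-H1703. HMOX1, the heme oxygenase, had 149.6 and 147 CPM in NCI-H1581 and 1672 and 1561 CPM in NCI-H1703 (log2 fold change 3.45 ± 0.10, adjusted p = 2.44e-07), and TXNRD1, a thioredoxin reductase, 307 and 341 CPM in NCI-H1581 and 1596 and 1764 CPM in NCI-H1703 (log2 fold change 2.37 ± 0.11, adjusted p = 1.91e-06). Of 24 glycolysis and hypoxia genes, 8 were higher in NCI-H1703, led by GAPDH with 2811 and 2570.0 CPM in NCI-H1581 and 8007 and 8643 CPM in NCI-H1703 (log2 fold change 1.63 ± 0.11, adjusted p = 1.28e-05), and 11 in NCI-H1581, among them the neuronal enolase ENO2 with 77.1 and 66.9 CPM in NCI-H1581 and 5.64 and 4.35 CPM in NCI-H1703 (log2 fold change -3.84 ± 0.17, adjusted p = 1.56e-06). Of 16 serine and one-carbon enzymes, 8 were higher in NCI-H1703, among them CBS, with 4.35 and 6.99 CPM in NCI-H1581 and 145 and 127 CPM in NCI-H1703 (log2 fold change 4.57 ± 0.19, adjusted p = 1.33e-06), and 5 in NCI-H1581. Of 72 cytosolic ribosomal protein genes, 33 were higher in NCI-H1581, 14 in NCI-H1703 and 25 were not called, with a small median of -0.19, and 23 in place of 47 were called in a single fit of all 8 libraries.

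Immune genes differed in both directions. The shares called were 80.0% (MHC class I presentation) and 59.3% (interferon-stimulated), against 62.9% of all genes. Of 15 genes of MHC class I presentation, 10 were higher in NCI-H1703 and 2 in NCI-H1581, with a median of 3.10 (2.54 at bounds), but the HLA genes, TAP2 and TAPBP lie in the uncertain interval, and 4 members were called without that interval. B2M, the light chain, lies on chromosome 15, outside that interval, and had 23.7 and 25.6 CPM in NCI-H1581 and 207 and 215 CPM in NCI-H1703 (log2 fold change 3.10 ± 0.11, adjusted p = 4.75e-07). ERAP1, which trims peptides, had 52.0 and 55.5 CPM in NCI-H1581 and 173 and 200.1 CPM in NCI-H1703 (log2 fold change 1.79 ± 0.11, adjusted p = 9.79e-06). HLA-B is listed with 39 and 31 counts in NCI-H1581 and 2743 and 2313 counts in NCI-H1703, and TAPBP, which loads peptides, with 3593 and 4481 counts in NCI-H1581 and 49 and 47 counts in NCI-H1703. Of 27 interferon-stimulated genes, 5 were higher in NCI-H1703, 11 in NCI-H1581 and 11 were not called. IFITM3 had 596 and 578 CPM in NCI-H1581 and 238 and 235 CPM in NCI-H1703 (log2 fold change -1.31 ± 0.09, adjusted p = 1.38e-05). Of 9 inflammatory cytokines, 6 were higher in NCI-H1703 and 0 in NCI-H1581 (66.7% called, against 62.9% of all genes). LIF, a cytokine of the IL-6 family, had 2.36 and 2.04 CPM in NCI-H1581 and 149.7 and 105 CPM in NCI-H1703 (log2 fold change 5.86 ± 0.25, adjusted p = 1.51e-06), and the chemokine CCL2 had 0.144 and 0.124 CPM in NCI-H1581 and 51.0 and 55.0 CPM in NCI-H1703 (log2 fold change 8.60 ± 0.26, adjusted p = 1.89e-07).

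The largest single differences, among called protein-coding genes with a mean of at least 50 CPM in a line and no overlap between replicates, came from genes read little or not at all in the other line. In NCI-H1703 they were BAG6, AGPAT1, CTAG1A, ALPK2, ARMCX2, CELF2, PDGFRA, SNRPN, MAGEA1 and SGK1. The order follows the fitted log2 fold change. For genes at or near 0 counts in a line it depends on the prior count of the fit, so their order is not measured. BAG6 and AGPAT1 lie in the MHC interval, CTAG1A has the copy CTAG1B and SNRPN shares exons with SNURF. ALPK2, an alpha-kinase, had 0 and 1 counts in NCI-H1581 and 2833 and 2385 counts in NCI-H1703, a ratio of 5455 (95% counting interval 979 to 215500.0). ARMCX2 had 0 and 2 counts in NCI-H1581 and 2650 and 2576 counts in NCI-H1703, a ratio of 2732 (95% counting interval 756 to 22560.0). CELF2, a splicing regulator, had 2 and 3 counts in NCI-H1581 and 2791 and 2769 counts in NCI-H1703, a ratio of 1162 (95% counting interval 498 to 3581). SGK1, a kinase induced by serum and glucocorticoids, had 0.461 and 1.12 CPM in NCI-H1581 and 703 and 774 CPM in NCI-H1703 (log2 fold change 9.82 ± 0.22, adjusted p = 9.16e-08). In NCI-H1581 the genes were OLFM3, ITPRIPL1, PTN, LOXL1, KCNJ2, PCDH17, CSPG4, ROBO2, GPX7 and GCG. OLFM3, a secreted olfactomedin, had 5227 and 6447 counts in NCI-H1581 and 1 and 1 counts in NCI-H1703, a ratio of 5584 (95% counting interval 1545 to 46110.0). PCDH17, a protocadherin, had 186 and 197 CPM in NCI-H1581 and 0.0525 and 0.119 CPM in NCI-H1703 (log2 fold change -11.10 ± 0.22, adjusted p = 6.73e-08). GCG, the precursor of glucagon, had 939.8 and 739 CPM in NCI-H1581 and 0.367 and 0.506 CPM in NCI-H1703 (log2 fold change -10.91 ± 0.25, adjusted p = 1.03e-07). ROBO2, a Slit receptor of axon guidance, had 2898 and 3807 counts in NCI-H1581 and 2 and 1 counts in NCI-H1703, and LOXL1, which cross-links elastin and collagen, 2237 and 2576 counts in NCI-H1581 and 1 and 0 counts in NCI-H1703. Adjusted p-values of these 20 genes lay at 8.43e-07 or under.

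The shares of genes higher in each line differed between chromosomes. Over the 15523 protein-coding genes with a place on chromosomes 1 to 22 and X, 33.8% were called higher in NCI-H1703 and 32.3% in NCI-H1581. On chromosome 18 these shares were 60.6% and 11.6%, and on chromosome 5 they were 59.0% and 14.5%. Chromosomes 13 (50.2%), 22 (49.6%) and 4 (45.4%) also held more genes higher in NCI-H1703. On chromosome 20, 13.4% were higher in NCI-H1703 and 59.4% in NCI-H1581, and on chromosome 14 16.5% and 52.9%. The median log2 fold change of genes over 10 CPM ran from -0.66 on chromosome 20 to 0.95 on chromosome 18, and in the resistant variants the values of these chromosomes were -0.66 and 0.67. Positions carry no test here, and neighbouring genes are not independent.

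**Figure D4:**
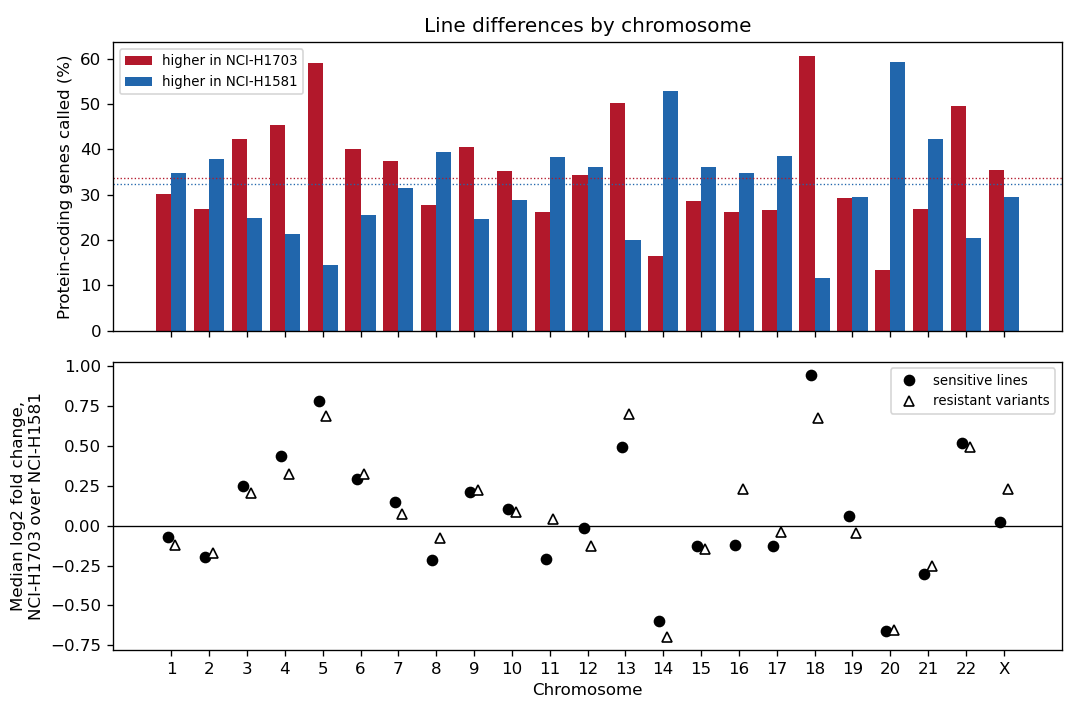
The upper panel gives, for each chromosome, the percent of tested protein-coding genes called higher in NCI-H1703 (red) and in NCI-H1581 (blue), with dotted lines at the shares over all chromosomes, 33.8% and 32.3%. The lower panel gives the median log2 fold change of genes over 10 CPM between the sensitive lines (filled circles) and between the resistant variants (open triangles). Chromosomes 5 and 18 stand highest and chromosomes 14 and 20 lowest in the sensitive lines.

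In runs of 25 neighbouring protein-coding genes over 10 CPM, the median log2 fold change lay between -0.76 and 0.93 for the middle 90% of 9367 overlapping runs. Some runs lie outside this range by construction, and those named here were picked as the most extreme in each direction. On chromosome 12, from 19404045 to 30823302 (AEBP2 to CAPRIN2), the median was 2.07 and 24 of 25 genes were higher in NCI-H1703. Another run of that chromosome, from 2877223 to 6770952 (TULP3 to PTMS), had a median of 1.87 with 24 genes higher and 0 lower. A run of chromosome 18, from 54151606 to 69849087 (MBD2 to DOK6), had 1.60, and a run of chromosome 7, from 44072062 to 55433737 (POLM to LANCL2) and with EGFR in it, 1.38. In the resistant variants the medians of these 4 runs were 2.07, 1.98, 1.63 and 1.41. The lowest runs lay on chromosome 11, from 3339261 to 8910951 (ZNF195 to DENND2B), with -1.25, and on the X chromosome, from 47142071 to 48971844 (NDUFB11 to KCND1), with -1.24 but -0.30 in the resistant variants. A run in the MHC interval of chromosome 6 had a median of 2.35 and is uncertain.

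Genes around FGFR1 and PDGFRA were examined because these regions are known amplicons. Of the 16 tested genes among the 10 on each side of FGFR1, 9 were higher in NCI-H1703, 2 in NCI-H1581 and 5 were not called. Over all placed protein-coding genes, 33.8% were called higher in NCI-H1703 and 32.3% in NCI-H1581. The genes next to FGFR1 on the side of higher coordinates differed most. TACC1, a centrosome gene, had 63.0 and 61.1 CPM in NCI-H1581 and 388 and 424 CPM in NCI-H1703 (log2 fold change 2.71 ± 0.10, adjusted p = 7.23e-07). PLEKHA2 had 10.7 and 12.8 CPM in NCI-H1581 and 127 and 133 CPM in NCI-H1703 (log2 fold change 3.47 ± 0.13, adjusted p = 6.95e-07), and ADAM9, a membrane protease, had 96.3 and 90.9 CPM in NCI-H1581 and 898 and 969 CPM in NCI-H1703 (log2 fold change 3.32 ± 0.10, adjusted p = 3.1e-07). On the other side, NSD3, a histone methyltransferase gene, had 169.9 and 200.1 CPM in NCI-H1581 and 281 and 302 CPM in NCI-H1703 (log2 fold change 0.66 ± 0.11, adjusted p = 0.00164), and PLPP5 and LETM2 were higher in NCI-H1581, by -0.98 and -1.24, LETM2 not without NCI-H1703 replicate 2 (adjusted p = 0.129). The exons of LETM2 and FGFR1 overlap. Around PDGFRA, 8 of 13 tested neighbours were higher in NCI-H1703 and 1 in NCI-H1581. Among the 8 is ENSG00000282278, an ID without a gene name that shares exons with PDGFRA and FIP1L1 on the same strand. It had 0 and 0 counts in NCI-H1581 and 1444 and 1422 counts in NCI-H1703, and is not independent of these genes. FIP1L1, CHIC2, CLOCK and EXOC1 were higher by 1.42, 1.54, 1.55 and 1.49, far less than PDGFRA itself, and SRD5A3 was higher in NCI-H1581 (-1.93). Around MYC, 7 of 17 neighbours were higher in NCI-H1703 and 8 in NCI-H1581, and around CDKN2A 4 and 2 of 11, with MTAP read in both lines (10.4 and 11.4 CPM in NCI-H1581 and 27.0 and 27.6 CPM in NCI-H1703).

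Most line differences were found again between the resistant variants, in libraries that the comparison did not use but of the same lines and media. Between NCI-H1703R and NCI-H1581R, 9564 genes (52.5%) were called, 4711 (25.9%) higher in NCI-H1703R and 4853 (26.7%) in NCI-H1581R. Of the 11444 genes called between the sensitive lines, 7312 (63.9%) were called the same way in the resistant variants, which is 76.5% of the calls there, 385 (3.36%) were called the opposite way, and 10140 (88.6%) had the same sign. Among differences over 16-fold 74.9% were called the same way, and among those of 2-fold or less 47.4%. The difference itself differed between the sensitive and resistant variants for 2803 genes (15.4%) by the interaction of line and variant, and without a replicate of NCI-H1703 or NCI-H1703R for 1571 to 1739 genes. Without NCI-H1703R replicate 1, 6120 genes were called between the resistant variants. PDGFRA (9.92 ± 0.28), EGFR (10.71 ± 0.51), COL3A1 (-9.83 ± 0.32), EPHA3 (-9.70 ± 0.26) and DUSP6 (-5.68 ± 0.27) had differences in the resistant variants for which the interaction was not called. FGFR2 differed from these. It had 5.06 and 0.967 CPM in NCI-H1581R and 10.6 and 4.93 CPM in NCI-H1703R, so its difference of -4.41 ± 0.42 before selection became 1.37 ± 0.74, which was not called (adjusted p = 0.193, interaction 5.76 ± 1.0, adjusted p = 0.00849). FGFR1 had 27.2 and 35.2 CPM in NCI-H1581R and 578 and 587 CPM in NCI-H1703R, and its difference widened to 4.22 ± 0.21 (interaction 2.06 ± 0.23, adjusted p = 0.000924).

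**Figure D5:**
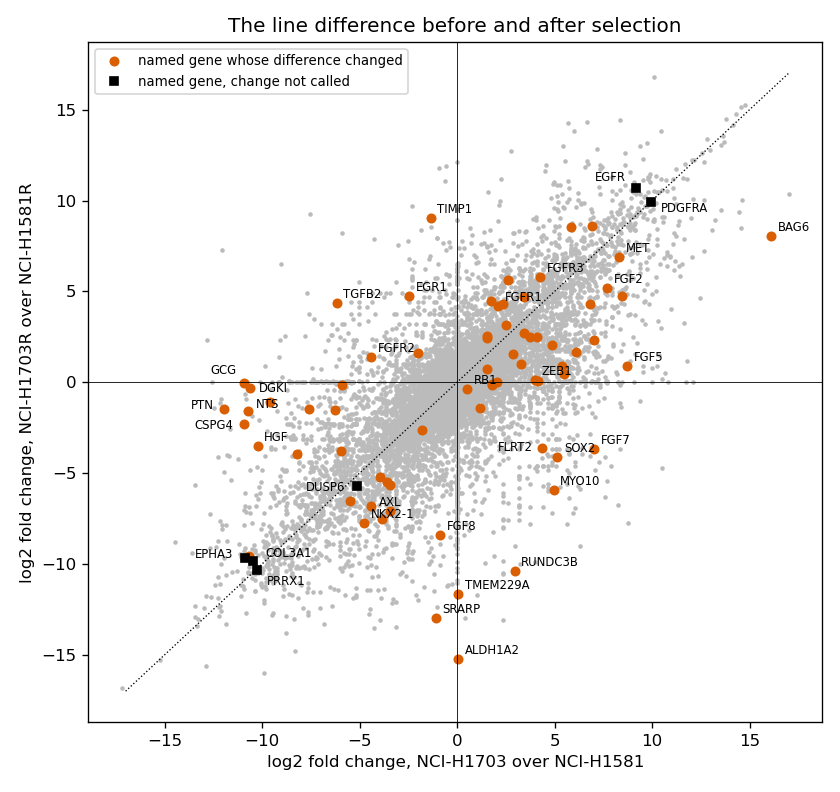
Each point is 1 of the genes tested, with its log2 fold change of NCI-H1703 over NCI-H1581 on the x axis and of NCI-H1703R over NCI-H1581R on the y axis. The dotted line marks equal values. Orange points are the 71 named genes whose difference changed by the interaction test, some of them labelled, and black squares are named genes for which it was not called. Of the genes called between the sensitive lines, 88.6% have the same sign on both axes. GCG, PTN, NTS and DGKI stand near 0 on the y axis, and TIMP1, MYO10, SOX2 and FGF7 changed sign.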

How the data were processed

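RNA was isolated from 2 separately repeated cultures of each variant, and libraries were read as pairs on a HiSeq 4000. According to the sources used here, reads were trimmed with cutadapt and quantified with Salmon against GRCh38, and the deposited table holds the resulting estimated counts per gene, summed with tximport and whole in every cell. The Salmon and annotation versions, the tximport option and the handling of strand are not given in the sources used here. Differential expression was tested here with edgeR 4.0.16 (R 4.3.3), with TMM factors and quasi-likelihood dispersions, over the 4 libraries of the sensitive lines and the 18203 genes whose 8 libraries together held 10 counts or more, with Benjamini-Hochberg adjustment over all of them and a threshold of 0.1. The standard error is the absolute log2 fold change divided by the square root of the F statistic. The resistant variants were fitted in the same way, and the interaction of line and variant in a fit of 8 libraries. With 2 replicates a line the fit has 2 residual degrees of freedom. The test also draws the dispersion of each gene towards a trend over all genes, so p-values do not rest on the gene's own replicates alone. The only spread they take into account is that between repeated cultures of 1 cell line.

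Symbols and positions came from GENCODE v44, in which 17177 of the 18203 IDs were found, and promoters from RefSeq for GRCh38.p14. The genes described, the 40 gene lists and the tests were chosen with earlier results of these data known. Named were the 10 largest called differences in each direction among protein-coding genes with at least 50 CPM in the higher line and no overlap, the FGF receptors and ligands, the most abundant called members over 2-fold of each list with its defining members, neighbours of FGFR1, PDGFRA, MYC and CDKN2A, and the 5 largest interactions in each direction. Some genes that this rule selects are not named, and some list members below 2-fold or not called, and some controlling or neighbouring genes, are named for context after their values were seen. Y-linked genes, XIST and a few other genes are not reported here. Genes with at most 3 counts in both libraries of a line are given by their counts, with a ratio and its exact 95% interval or, where both were 0, a lower bound against a floor of 3 counts per library. Alternatives were DESeq2 1.42.0, other scaling, filters, thresholds and fits, each replicate left out, and, chosen after seeing the data, edgeR's legacy dispersions and the table without unplaced IDs and the MHC interval. Scripts were tested on simulated data with 200 changed genes, of which 138 (69%) were called, beside 16 false calls. Of genes changed 1.5-fold 26% were called, of those changed 2-fold 64% and of those changed 8-fold 100%. Small differences can therefore be missed.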

Additional observations from a re-analysis of the deposited data

Results flagged for a closer look

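For 71 of the genes named here or in the results above, the difference between NCI-H1703 and NCI-H1581 was not the same before and after selection for resistance, by the interaction of line and variant in edgeR's quasi-likelihood test over 8 libraries (adjusted p under 0.1). NCI-H1581R was selected up to 2.5 µM and NCI-H1703R up to 5 µM, so the interaction cannot be told apart from this difference in dose. Whether the inhibitor was in the medium at collection is not given in the sources used here. Values below are the interaction, the log2 fold change of NCI-H1703R over NCI-H1581R minus that of NCI-H1703 over NCI-H1581. Where a variant was at or near 0 counts, the value depends on the prior count of the fit and gives no measured size.

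In 5 genes that were abundant in NCI-H1581 and scarce in NCI-H1703, NCI-H1581R was low as well. GCG had 939.8 and 739 CPM in NCI-H1581 and 0.509 and 0.407 CPM in NCI-H1581R, so the gap to NCI-H1703R (0.357 and 0.539 CPM) was gone (interaction 10.85 ± 0.88, adjusted p = 0.000203). PTN (10.45) had 2171 and 2976 counts in NCI-H1581 and 4 and 8 counts in NCI-H1581R, DGKI (10.24) 2356 and 2980 counts and 3 and 5 counts, NTS (9.12), the neurotensin precursor, 6430 and 6530 counts and 36 and 21 counts, and CSPG4 (8.59) 2241 and 2371 counts and 29 and 45 counts. TIMP1, an inhibitor of matrix proteases, had 191 and 170.2 CPM in NCI-H1581 and 70.5 and 70.9 CPM in NCI-H1703, but 0.321 and 0.0509 CPM in NCI-H1581R and 87.7 and 105 CPM in NCI-H1703R (interaction 10.34 ± 0.38, adjusted p = 6.28e-06), so the line with the higher level changed.

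Other genes were scarce in both sensitive lines and abundant in NCI-H1581R. ALDH1A2, a retinoic acid synthesis gene, had 3 and 1 counts in NCI-H1581 and 4 and 0 counts in NCI-H1703, against 5574 and 4165 counts in NCI-H1581R and 0 and 0 counts in NCI-H1703R (interaction -15.26). RUNDC3B (-13.39), SRARP (-11.92) and TMEM229A (-11.76) followed the same pattern, with 2602 and 1972 counts, 19148 and 16234 counts and 2171 and 2070 counts in NCI-H1581R. MYO10, a myosin of filopodia, had 0.806 and 0.273 CPM in NCI-H1581 and 16.2 and 16.2 CPM in NCI-H1703, and 254 and 387 CPM in NCI-H1581R and 5.74 and 4.69 CPM in NCI-H1703R (interaction -10.92 ± 0.47, adjusted p = 9.42e-06).

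In the FGF system, FGF8 had 1.41 and 1.19 CPM in NCI-H1581 and 0.629 and 0.774 CPM in NCI-H1703, but 143 and 168 CPM in NCI-H1581R and 0.494 and 0.404 CPM in NCI-H1703R (interaction -7.57 ± 0.55, adjusted p = 0.000113). FGF5, a ligand of NCI-H1703, had 46.8 and 46.8 CPM there and 0.220 and 0.0809 CPM in NCI-H1703R (interaction -7.86 ± 1.5, adjusted p = 0.00843). FGF7 (-10.82) had 62 and 49 counts in NCI-H1581R and 4 and 4 counts in NCI-H1703R, and FGF2 (-2.56) kept its direction. FGFR2 (5.76), FGFR1 (2.06) and FGFR3 (1.49, with 4.98 and 7.15 CPM in NCI-H1581R and 375 and 299 CPM in NCI-H1703R) also differed.

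SOX2 was higher in NCI-H1703 before selection and in NCI-H1581R after it, with 6.67 and 6.67 CPM in NCI-H1581R and 0.577 and 0.189 CPM in NCI-H1703R (interaction -9.29 ± 0.59, adjusted p = 5.53e-05). ZEB1 (-3.91) had 19.0 and 31.7 CPM in NCI-H1581R and 26.5 and 29.0 CPM in NCI-H1703R, and RB1 changed by -0.89. NKX2-1 (-3.02), AXL (-2.44) and MET (-1.48) kept their direction. BAG6, in the uncertain MHC interval, had 16 and 54 counts in NCI-H1581R (-8.16).

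Of the other genes, 5 were called in opposite directions before and after selection, each higher in the other line afterwards: TGFB2 (interaction 10.46), EGR1 (7.20), CD68 (3.59), SPRY4 (-2.61) and FLRT2 (-8.01). EGR1 had 46.3 and 58.5 CPM in NCI-H1581 and 8.92 and 9.98 CPM in NCI-H1703, and 1.58 and 1.09 CPM in NCI-H1581R and 30.7 and 41.7 CPM in NCI-H1703R. The difference was no longer called between the resistant variants for LUM (8.50), COL1A1 (5.72), KRT18 (-4.54), CDH2 (-4.08), DUSP4 (-2.05), HOXC8 (-1.93) and ERAP1 (-1.92). It was called in the same direction but smaller for HGF (6.68), ZEB2 (6.07), SNAP25 (4.66), MMP2 (4.25), LAMA1 (2.12), COL1A2 (1.08), ID1 (-5.04), CCN1 (-4.74), ID3 (-4.43), WNT5B (-3.77), PHLDA1 (-2.82), ITGA3 (-2.54), GATA2 (-2.31), JUN (-1.65), DUSP5 (-1.37), FLT4 (-1.30), CLOCK (-0.85) and INA (-0.77). It was larger for ETV4 (-3.68), ENO2 (-3.73), FLRT3 (-2.29), ETV1 (-1.94), AXIN2 (-1.27), HAND2 (-1.07), SPRED2 (-0.86), FOSL1 (2.98), IL17RD (2.69), LIF (2.66), HOXC9 (1.92), TGFBR2 (1.64), HMOX1 (1.21), HSPB1 (0.96), SHC1 (0.88) and MAPK11 (0.58).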

How the results depend on the processing

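Between the sensitive lines, 9087 to 11428 genes were called under the other tools, scalings, filters, fits and thresholds, and 9603 (without NCI-H1703 replicate 1) to 10970 with a replicate left out, against 11444. All calls shared with the reported ones had the same direction, and 50.0% to 52.8% of calls were higher in NCI-H1703. Other scalings moved the median of all genes by -0.023 to 0.031 (log2). With at least 10 counts in every library, 420 genes exceeded 16-fold in place of 2418, since genes read in 1 line leave the test, and the calls of 15 of the 40 lists fell with them. With a replicate left out, the lone library being assumed to vary like the others, 6120 to 10361 genes were called between the resistant variants (9564 with all) and 1571 to 4141 by the interaction (2803 with all). The log2 fold changes that turned sign belonged to genes that were not called. ALDH1A2 was -0.10 with DESeq2, -0.082 with the replicate block and -0.022 with legacy dispersions, and -4.04 to 1.08 with a replicate left out. With a replicate left out, CDH1 ran from -0.051 to 1.05, FGF22 from -0.43 to 6.17, KRT5 from -4.44 to 3.96, SMARCA4 from -0.29 to 0.44 and TMEM229A from -0.39 to 0.47. The cause was not tested. At 33800389 to 40031710 counts per sensitive library, genes with a few counts are what depth limits.

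The replicate numbers name repeats of the culture procedure. Same-numbered libraries of NCI-H1581 and NCI-H1703 deviated from their group means with a correlation of 0.0938 over 9038 genes, and 2 pairs do not settle whether the numbers pair the samples. With the replicate number as a block, 11409 genes were called, of which 11136 were among the 11444, all in the same direction. For the resistant variants the correlation was -0.446, and the block left 7638 genes called (9564 without it) and 2526 by the interaction, and other pairs of variants ran from -0.298 to 0.466.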

Other observations

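Some genes that most cells express are listed with few counts, as are the genes above whose rows are uncertain, so these values cannot be read as low levels, and their cause was not tested. NOTCH1 is listed at 0 counts in all 4 sensitive libraries and had 2 and 0 counts in NCI-H1581R and 12 and 4 counts in NCI-H1703R. SMARCB1, the core SWI/SNF subunit, had 59 and 74 counts in NCI-H1581 and 93 and 68 counts in NCI-H1703, and 23 and 173 counts in NCI-H1581R and 284 and 27 counts in NCI-H1703R. Of the ribosomal protein genes, RPS27 had 167 and 186 counts in NCI-H1581 and 107 and 102 counts in NCI-H1703, far fewer than RPS9 had in NCI-H1581 (18871 and 21607 counts).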
